A study of Mus musculus with 16 samples.

Results

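IL-23 is a cytokine of antigen presenting cells that binds IL-23R on T cells, among them FOXP3+ regulatory T (Treg) cells of the colon. To ask whether the loss of IL-23R in Treg cells alters what a colon tumor expresses relative to the tissue beside it, the tumor effect was measured within each mouse and then compared between genotypes. For every gene, the tumor effect of a mouse was the log2 CPM (its count relative to the library total, scaled by TMM, which allows for differing library composition) of its tumor minus that of its adjacent normal colon. The interaction was the tumor effect of *Il23r*ΔTreg mice minus that of WT mice, on the log2 scale, so a negative interaction means a lower tumor effect in *Il23r*ΔTreg mice. All 16 libraries of the series entered, a tumor and the tissue beside it from 5 *Il23r*ΔTreg mice and 3 WT mice, and 17122 of 19574 genes passed the filter on low counts.

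*Il23r*ΔTreg mice (Il23rflflFoxp3YFP-Cre) carry a floxed *Il23r* and a Cre recombinase driven from *Foxp3*, which limits the deletion to FOXP3+ cells. WT mice carried Foxp3YFP-Cre alone. All were C57BL/6 males, 7 to 8 weeks old at the start, and had received 1 injection of the mutagen azoxymethane (AOM, 10 mg/kg) and 3 cycles of 3.5% dextran sodium sulphate (DSS), which injures the colon epithelium. Each cycle lasted 5 days and was followed by 16 days of recovery. In the labels every cage held mice of 1 genotype only and all 3 WT mice came from 1 cage, so an effect of the cage and one of the genotype cannot be told apart. The tumor library of mouse2901 carries another cage label than its adjacent normal library.

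The libraries held 34418067 to 60836474 counts. The epithelial marker *Epcam* was at 1188 to 1886 CPM in every library. *Il23r* had 0 to 14 counts per library, did not pass the filter and was not tested, and because other cells keep the gene, whole-tissue RNA is no check of the deletion. The share of counts from *Rn18s*, which encodes 18S ribosomal RNA, ran from 0.343% to 29.7%. In tumors it was 0.343% to 9.45% in *Il23r*ΔTreg mice and 6.62% to 29.7% in WT mice. In adjacent normal tissue it was 0.661% to 9.10% and 2.39% to 19.4%. WT libraries thus reached higher shares in both tissues, and what this does to differences between genotypes within a tissue was not tested. It was largest in the tumor of WT mouse2988, which also had the lowest TMM factor (0.670). The tumor minus adjacent normal difference of the *Rn18s* share averaged 1.84 ± 5.97 percentage points in *Il23r*ΔTreg mice and 5.08 ± 13.7 in WT mice (SD, n = 5 and 3, two-sided exact permutation test p = 0.643, adjusted p = 0.643 over 5 technical measures). With 3 mice against 5, the smallest p this test can give is 0.0179.

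Colon tumors of this model grow from crypt epithelium with active Wnt signaling and hold T cells, B cells, macrophages and mast cells among epithelial and stromal cells. Interferon gamma from T cells and NK cells raises MHC class I and class II, the immunoproteasome and a broad set of interferon-stimulated genes in the cells around them. In RNA from whole tissue, fewer cells of a type and less RNA per cell cannot be told apart.

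The clearest difference was a deeper loss in *Il23r*ΔTreg tumors of *Car4*, a membrane-bound carbonic anhydrase of mature surface colonocytes. Genes of antigen presentation, the interferon response, T cells and B cells had lower tumor effects in *Il23r*ΔTreg mice, and *Ptgs2*, *Mmp13*, *Il11* and *Muc1* had higher ones. Only *Car4* passed the test across genes (edgeR quasi-likelihood test with the mouse as a block, Benjamini-Hochberg adjusted p under 0.05 and an interaction beyond 1), which is 0.00584% of genes tested. With DESeq2 and the same block 571 genes passed, and with limma on the differences of the mice 0 passed. Leaving out WT mouse2989, 975 genes passed in edgeR, and leaving out any one of mouse2901, mouse2903, mouse2904, mouse3883, mouse2988 and mouse2990, 0 passed. At an unadjusted p under 0.05, the interaction was negative for 1318 genes (7.70%) and positive for 1645 (9.61%), and these are given below as descriptions, not as calls. The tumor effects of the mice did not overlap, with every *Il23r*ΔTreg mouse below every WT mouse, in 847 genes (4.95%), and with every *Il23r*ΔTreg mouse above in 765 (4.47%). Many of the genes named below were picked only from among these, so their lack of overlap follows from the choice and is no further result.

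The size of the tumor effect over all genes was not shown to differ. The number of genes more than 1 log2 unit from 0 was 5535, 5495, 4702, 4763 and 5485 in *Il23r*ΔTreg mice, against 6897, 4425 and 6304 in WT mice. The WT values lay on both sides of all *Il23r*ΔTreg values (means 5196 and 5875, two-sided exact permutation test p = 0.339). Genes above 1 averaged 2174 ± 225 in *Il23r*ΔTreg mice and 2840 ± 462 in WT mice (SD, same test, unadjusted p = 0.0536). Genes below -1 averaged 3022 ± 507 and 3035 ± 836 (same test, unadjusted p = 0.946). The SD of the tumor effect across genes averaged 1.42 ± 0.136 in *Il23r*ΔTreg mice and 1.46 ± 0.247 in WT mice (SD over mice, n = 5 and 3, two-sided exact permutation test p = 0.786).

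*Car4* had tumor effects of -6.61, -6.05, -6.68, -6.99 and -7.04 in *Il23r*ΔTreg mice, against -3.74, -3.88 and -4.32 in WT mice. The gene was lower in the tumor of all 8 mice and fell further in every *Il23r*ΔTreg mouse than in any WT mouse. Its level was 2.29 to 11.3 CPM in *Il23r*ΔTreg tumors against 46.9 to 59.7 CPM in WT tumors, and 309 to 1143 CPM in *Il23r*ΔTreg adjacent normal tissue against 799 to 935 CPM in WT adjacent normal tissue. The genotypes thus parted in the tumors, while the adjacent normal tissues overlapped. The interaction was -2.71 ± 0.28 (SE), with an adjusted p of 0.0317 by edgeR. Without the length trend described further on it was -2.35 and no longer passed (adjusted p = 0.116, edgeR).

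*Aqp8*, the water channel of surface colonocytes, went the same way without passing the test, with tumor effects of -9.16, -7.56, -6.13, -7.18 and -7.29 in *Il23r*ΔTreg mice against -4.31, -4.03 and -6.00 in WT mice. No mice overlapped, by the narrow gap between mouse2903 and WT mouse2990, and the interaction was -2.73 ± 0.66 (unadjusted p = 0.00202, adjusted p = 0.172 by edgeR). The colonocyte list as a whole did not share this pattern. Of 23 colonocyte genes tested, 4 had a negative interaction at an unadjusted p under 0.05 (*Car4*, *Aqp8*, the fatty acid binding protein *Fabp2* and the bile acid transporter subunit *Slc51b*) and 2 a positive one (the sodium channel subunit *Scnn1b* and the sodium-hydrogen exchanger *Slc9a3*). The list median was -0.04, beside -0.03 over all genes tested. Without WT mouse2989 the counts were 6 negative and 5 positive, where 13.6% of all genes tested were negative and 15.5% positive.

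*Scnn1b*, a subunit of the epithelial sodium channel, had tumor effects of 0.29, -0.61, -0.05, -0.25 and -0.66 in *Il23r*ΔTreg mice, against -2.05, -1.66 and -1.48 in WT mice. It was lower in WT tumors than beside them, and stayed near the level of adjacent tissue in *Il23r*ΔTreg tumors (interaction 1.48 ± 0.29, adjusted p = 0.161 by edgeR). Among 19 goblet cell genes the interaction was negative at an unadjusted p under 0.05 for 5 and positive for 1, with a median of -0.33. The negative count was 2 with the length trend removed, without the mouse as a block, in limma voom and with library size alone, and 3 without WT mouse2988. *Zg16*, a secreted goblet cell lectin, had tumor effects from -8.57 to -4.73 in *Il23r*ΔTreg mice and from -3.76 to -3.46 in WT mice, with no overlap. *Retnlb*, an antibacterial goblet cell product, lay between -1.56 and 1.38 in *Il23r*ΔTreg mice and between 1.54 and 5.03 in WT mice.

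**Figure D1:**
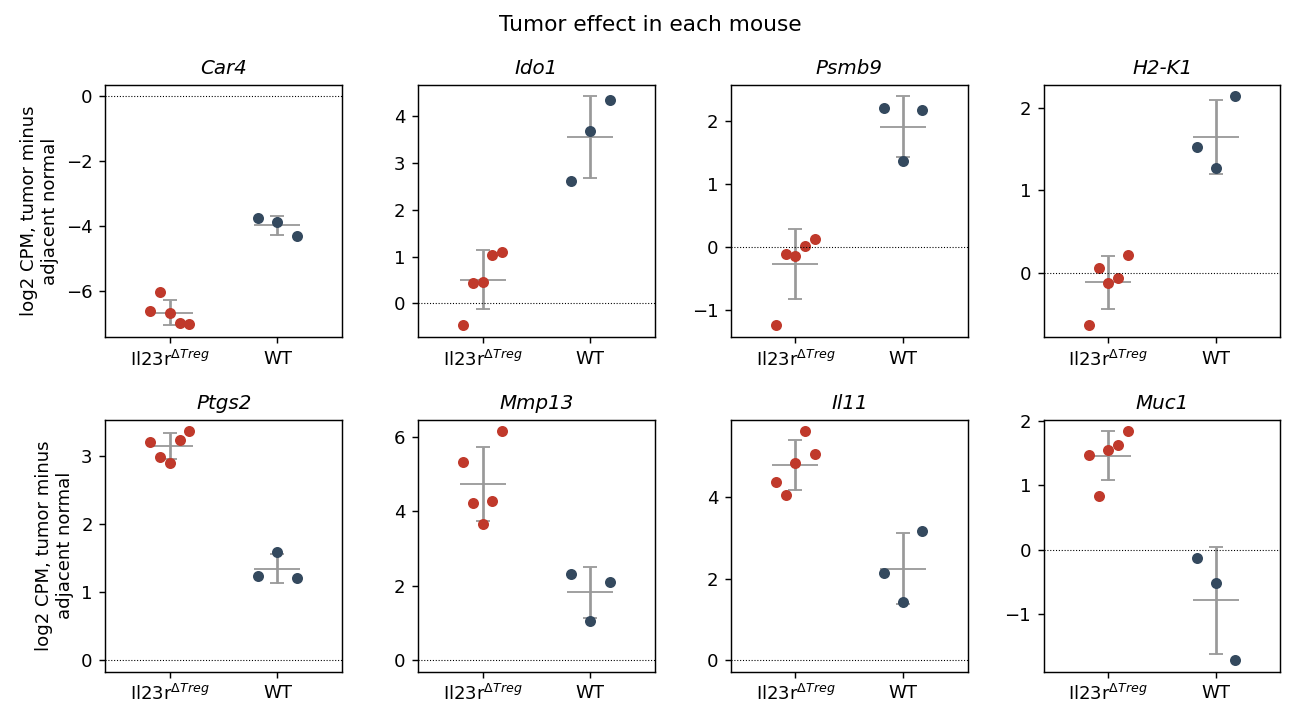
Tumor effect of 8 genes in each mouse, as log2 CPM of the tumor minus that of its adjacent normal tissue. Points are mice (5 *Il23r*ΔTreg, 3 WT), long horizontal lines are means and bars are the SD. In each of the 8 genes the points of the genotypes do not overlap, but most of them were picked by a rule that required this. *Car4* lies between -7.04 and -6.05 in *Il23r*ΔTreg mice and between -4.32 and -3.74 in WT mice.

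MHC class I molecules show peptides cut by the proteasome to CD8+ T cells, and the immunoproteasome subunits, the TAP transporter and *B2m* serve that route. Of 22 genes of this group tested, 19 (86.4%) had a negative interaction at an unadjusted p under 0.05 and 0 a positive one, and in the same number of genes every *Il23r*ΔTreg mouse lay below every WT mouse. The 3 others, the chaperones *Calr* and *Pdia3* and the peptidase *Erap1*, had interactions of -0.51, -0.08 and 0.01. The median interaction was -1.51, and the difference between genotypes had a median of -1.45 in tumors and 0.12 in adjacent normal tissue. None of the 22 passed the test in edgeR with all mice, while 16 passed in edgeR without WT mouse2989 and 18 in DESeq2 with the block.

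*H2-K1*, a classical class I heavy chain, had tumor effects of -0.64, 0.05, -0.13, -0.07 and 0.21 in *Il23r*ΔTreg mice, against 1.53, 1.28 and 2.14 in WT mice. The tumors of WT mice thus held more *H2-K1* than the tissue beside them in 3 of 3 mice, while the *Il23r*ΔTreg values scattered about 0. Its level was 685 to 1407 CPM in *Il23r*ΔTreg tumors and 2400 to 4482 CPM in WT tumors (interaction -1.76 ± 0.29, adjusted p = 0.121 by edgeR). Reads of *H2-K1* and the other class I heavy chains can be shared between these similar genes, so their single values are uncertain.

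*Psmb9*, an immunoproteasome subunit, had tumor effects of -1.24, -0.11, -0.14, 0.02 and 0.13 in *Il23r*ΔTreg mice, against 2.21, 1.36 and 2.18 in WT mice. The groups lay more than 1 log2 unit apart, and mouse2901 was the lowest (interaction -2.18 ± 0.34, adjusted p = 0.121 by edgeR). *B2m*, the light chain of class I, had an interaction of -1.91 ± 0.39, and the peptide transporter *Tap1* one of -1.90 ± 0.42.

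MHC class II molecules present peptides to CD4+ T cells and are carried by dendritic cells, macrophages, B cells and, under interferon gamma, by epithelium. Of 14 class II genes tested, 13 had a negative interaction at an unadjusted p under 0.05 and 0 a positive one, with a median of -2.16. The median difference between genotypes was -2.12 in tumors and 0.07 in adjacent normal tissue. *H2-DMb1*, part of the chaperone that loads class II with peptide, had tumor effects of -1.48, -0.63, 0.20, 0.05 and -0.49 in *Il23r*ΔTreg mice, against 1.71, 1.17 and 2.26 in WT mice. *Ciita*, the master regulator of class II transcription, had -2.12, -0.75, -0.73, -0.15 and -0.10 in *Il23r*ΔTreg mice, against 0.54, 1.50 and 1.47 in WT mice. In both genes all WT values lay above all *Il23r*ΔTreg values.

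Of 55 interferon-stimulated genes tested, 28 had a negative interaction at an unadjusted p under 0.05 and 0 a positive one, and 54 of 55 were below 0, with a median of -1.32. The count was 17 without the mouse as a block. *Ido1*, an interferon-induced enzyme that breaks down tryptophan and stood in the list of costimulation and checkpoint genes, had a smaller p than any of the 55. Its tumor effects were -0.48, 0.43, 0.45, 1.04 and 1.10 in *Il23r*ΔTreg mice, against 2.62, 3.69 and 4.36 in WT mice. The level was 15.7 to 50.3 CPM in *Il23r*ΔTreg tumors and 200 to 320 CPM in WT tumors, and 10.5 to 33.4 CPM in *Il23r*ΔTreg adjacent normal tissue against 10.7 to 52.1 CPM in WT adjacent normal tissue. WT tumors thus lay above every other library, and the interaction was -3.05 ± 0.45 (adjusted p = 0.121 by edgeR).

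*Igtp*, an interferon-inducible GTPase, ran from -0.36 to 1.93 in *Il23r*ΔTreg mice and from 2.44 to 3.58 in WT mice. *Cxcl10*, the ligand of CXCR3 that draws in activated T cells, had tumor effects of 0.55, 2.02, 1.53, 0.90 and 3.54 in *Il23r*ΔTreg mice, against 4.80, 4.01 and 4.62 in WT mice. Its level was higher in the tumor of all 8 mice, by less in each *Il23r*ΔTreg mouse.

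Interferon-responsive genes are commonly marked by the interferon-stimulated response element, whose core was searched as GAAANNGAAA on both strands from 250 bases before to 50 after the start of each gene (RefSeq promoters, GRCm38.p6). The core was present in 26 of 40 interferon-stimulated genes with a promoter in the table (65%) and in 5 of 19 class I and immunoproteasome genes (26.3%), against 499 of 13085 tested genes (3.81%). It was present in 8.94% of the genes with a negative interaction at an unadjusted p under 0.05 and in 3.41% of those with a positive one. For 4 interferon-induced genes that hold the core, of which values are given above or below, 150 bases upstream of the start that hold the core are printed below, 5′ to 3′ on the strand of the gene, with the match in capitals. They come from chr5:92348990-92349139 (- strand), chr11:58199406-58199555 (+ strand), chr11:49064213-49064362 (- strand) and chr8:71537520-71537669 (- strand), and a match describes the letters and does not show that a factor binds.
Cxcl10: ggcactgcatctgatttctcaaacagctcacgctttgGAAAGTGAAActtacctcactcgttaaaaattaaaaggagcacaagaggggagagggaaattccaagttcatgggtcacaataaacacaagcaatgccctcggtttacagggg
Igtp: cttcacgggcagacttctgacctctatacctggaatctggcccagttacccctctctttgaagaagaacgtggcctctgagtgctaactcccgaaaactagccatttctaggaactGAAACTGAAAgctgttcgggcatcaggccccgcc
Tgtp2: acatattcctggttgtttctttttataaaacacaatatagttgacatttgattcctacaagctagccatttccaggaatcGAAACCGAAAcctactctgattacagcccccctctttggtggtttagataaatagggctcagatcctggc
Bst2: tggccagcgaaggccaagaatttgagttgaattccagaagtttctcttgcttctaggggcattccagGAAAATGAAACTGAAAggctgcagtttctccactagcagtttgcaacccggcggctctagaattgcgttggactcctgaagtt

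*Tgtp2*, another interferon-inducible GTPase, had tumor effects from 0.42 to 2.53 in *Il23r*ΔTreg mice and from 3.26 to 4.49 in WT mice, and shares sequence with *Tgtp1*, so its reads may be divided between them. *Bst2*, the tether that holds budding virus at the cell surface, ran from -1.54 to 0.74 in *Il23r*ΔTreg mice and from 1.06 to 2.37 in WT mice. Neither gene overlapped between the genotypes, and the interaction of *Tgtp2* was -2.46 ± 0.50.

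**Figure D2:**
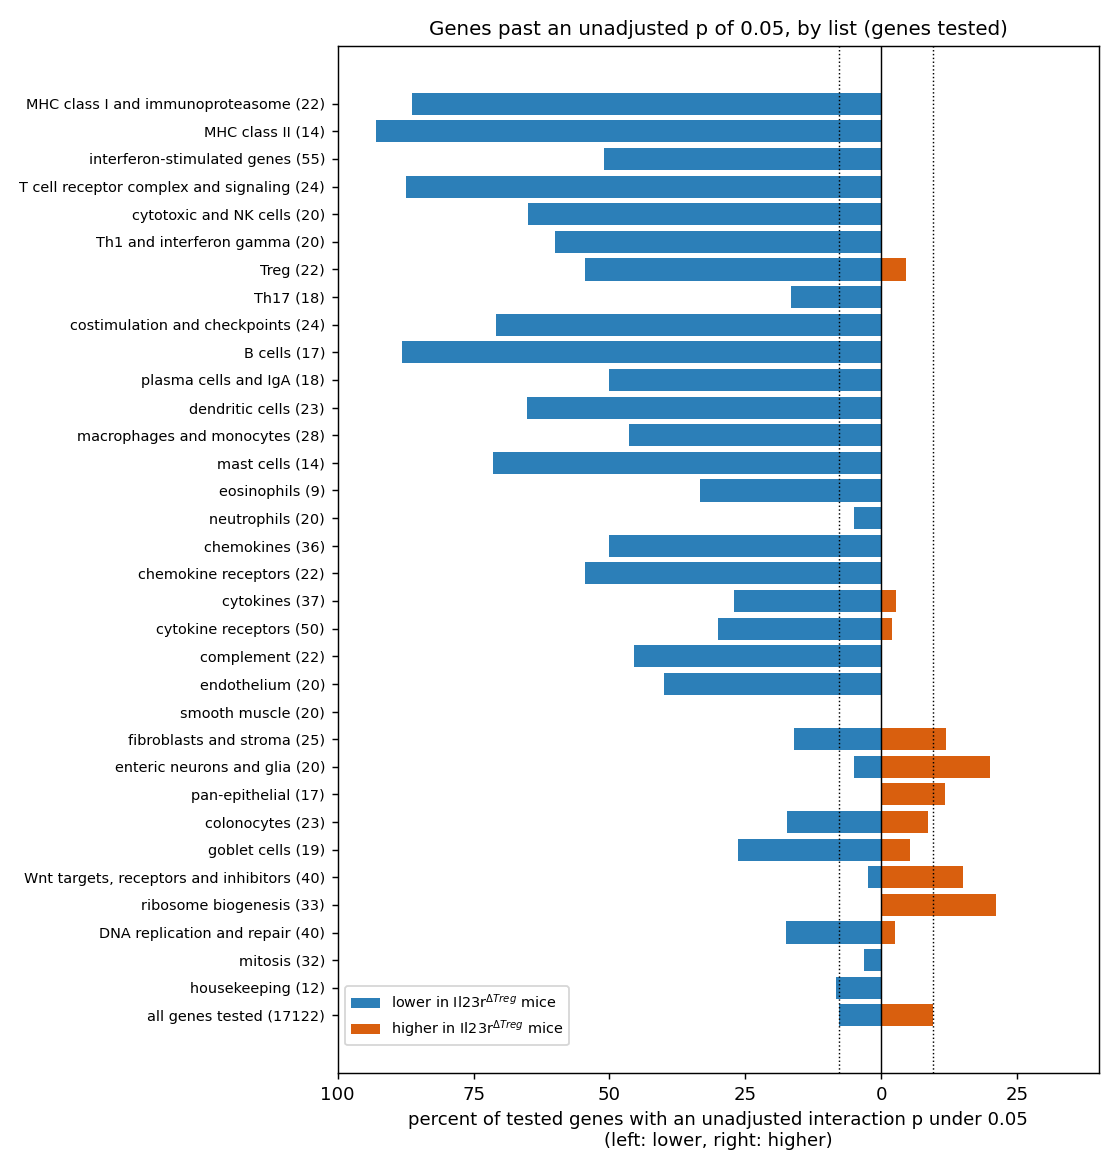
Percent of the tested genes of each list (number tested in parentheses) with an unadjusted interaction p under 0.05, drawn to the left of 0 where the tumor effect was lower in *Il23r*ΔTreg mice and to the right where it was higher; dotted lines mark 7.70% and 9.61%, the shares over all genes tested. Bars of the antigen presentation and lymphocyte lists reach far left of the dotted line (19 of 22 class I genes, 13 of 14 class II genes), while smooth muscle has no bar.

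T cell genes had lower tumor effects in *Il23r*ΔTreg mice. Of 24 genes of the T cell receptor complex and its signaling, 21 had a negative interaction at an unadjusted p under 0.05, 0 a positive one, and all 24 were below 0 (median -2.30). The median difference between genotypes was -1.95 in tumors and 0.40 in adjacent normal tissue. *Lat*, the adaptor that links the T cell receptor to its downstream kinases, had tumor effects of -1.72, -0.35, -0.89, 0.07 and -0.56 in *Il23r*ΔTreg mice, against 1.58, 1.97 and 2.20 in WT mice. No mice overlapped, and the interaction was -2.64 ± 0.42 (adjusted p = 0.121 by edgeR). *Cd8b1*, a chain of the CD8 coreceptor, had an interaction of -3.89 ± 0.77, and *Cd4* one of -1.80 ± 0.65.

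Of 20 cytotoxic and NK cell genes, 13 had a negative interaction at an unadjusted p under 0.05 and 0 a positive one (median -1.91). *Nkg7*, a protein of cytotoxic granules, ran from -2.30 to 0.62 in *Il23r*ΔTreg mice and from 1.87 to 3.01 in WT mice. Of 20 Th1 and interferon gamma genes, 12 were negative and 0 positive at that threshold (median -1.40). *Ifng* itself had tumor effects of -1.07, 0.95, 0.66, 1.16 and 2.74 in *Il23r*ΔTreg mice, against 3.11, 2.86 and 4.09 in WT mice. The genotypes did not overlap in this difference, but the gene was at 0.0572 to 1.48 CPM in *Il23r*ΔTreg tumors and 0.711 to 1.64 CPM in WT tumors, and the interaction was uncertain (-2.87 ± 1.26, unadjusted p = 0.0467).

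Genes of Treg cells, the cells in which *Il23r* was deleted, went with the other T cell genes. Of 22 tested, 12 were negative and 1 positive at an unadjusted p under 0.05 (median -1.60). This list and that of costimulation and checkpoint genes described below share members and have the same median, so their counts are not independent. *Foxp3*, the transcription factor that defines Treg cells, had tumor effects of -1.17, 0.74, 0.39, 1.94 and -0.42 in *Il23r*ΔTreg mice, against 1.03, 3.06 and 3.25 in WT mice. *Il23r*ΔTreg mouse2904 lay above WT mouse2988, so the groups overlapped (interaction -2.34 ± 0.88, unadjusted p = 0.0245). The level of *Foxp3* was low, at 0.667 to 1.22 CPM in *Il23r*ΔTreg tumors and 1.98 to 3.07 CPM in WT tumors. In adjacent normal tissue it was 0.227 to 1.66 CPM in *Il23r*ΔTreg mice and 0.195 to 0.943 CPM in WT mice. *Tnfrsf18*, which encodes the costimulatory receptor GITR, did not overlap, with -0.83 to 0.44 in *Il23r*ΔTreg mice and 1.68 to 3.34 in WT mice. The member with a positive interaction was *Il1rl1*, the IL-33 receptor (1.35 ± 0.51).

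Genes of the IL-23 and IL-17 axis differed among themselves. *Il23a*, the p19 subunit of IL-23, had tumor effects of 5.29, 5.19, 2.92, 3.90 and 4.49 in *Il23r*ΔTreg mice, against 4.17, 4.63 and 4.16 in WT mice. The WT values lay within the range of the *Il23r*ΔTreg values (interaction 0.06 ± 0.55, unadjusted p = 0.917), and tumors rose above adjacent tissue in both genotypes (edgeR adjusted p = 2.36e-05 in *Il23r*ΔTreg mice and 0.00027 in WT mice). *Il17a* had -0.94, 4.23, 3.41, 2.73 and 2.05 in *Il23r*ΔTreg mice, against 3.69, 2.44 and 2.40 in WT mice, with mouse2901 far below the rest (interaction -0.99 ± 1.82, unadjusted p = 0.598). Of 18 Th17 genes, 3 were negative and 0 positive at an unadjusted p under 0.05, with a median of -0.26. The negative count was 6 with the length trend removed (median -0.69), without the mouse as a block (median -1.16), in DESeq2 with the block, in limma voom, without mouse2904 and without WT mouse2990. *Il12b*, the subunit that IL-23 shares with IL-12, had -2.51, 0.21, -1.33, 0.86 and -1.91 in *Il23r*ΔTreg mice, against -0.04, 2.10 and 3.15 in WT mice. Its groups overlapped (interaction -2.99 ± 1.15, unadjusted p = 0.0265), and *Il12rb1*, the receptor chain shared by the same cytokines, had an interaction of -2.21 ± 0.62 with no overlap.

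Tumor effects of opposite sign, past the edgeR threshold in each genotype separately, were found in 10 genes (0.0584% of genes tested). Of these, 9 were lower in *Il23r*ΔTreg tumors and higher in WT tumors than in the tissue beside them. They included the lymphocyte genes *Cd27*, *Cd2*, *Cd7*, *Ptprcap*, *S1pr4* and *Skap1*, of which *Cd2*, *Cd7* and *Ptprcap* fall outside the naming rule and were picked with their values known. Of 24 costimulation and checkpoint genes, which include *Cd27*, 17 were negative and 0 positive at an unadjusted p under 0.05 (median -1.60), against 11 negative without WT mouse2989 and 10 without WT mouse2990. *Cd27*, a receptor of T and B cells, had tumor effects of -2.45, -0.36, -2.05, -0.31 and -0.54 in *Il23r*ΔTreg mice, against 2.19, 2.12 and 2.12 in WT mice. Every mouse of a genotype had the same sign. As the 10 genes were picked for opposite signs, this follows largely from the choice and is no further result. The gene with the reverse pattern was *Hoxb5*, a homeobox transcription factor, with 1.08, 1.39, 0.71, 1.17 and 0.75 in *Il23r*ΔTreg mice against -0.52, -1.60 and -1.97 in WT mice. The interactions of *Cd27* (-3.55 ± 0.66) and *Hoxb5* (2.47 ± 0.43) had adjusted p-values of 0.148 and 0.14 by edgeR.

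**Figure D3:**
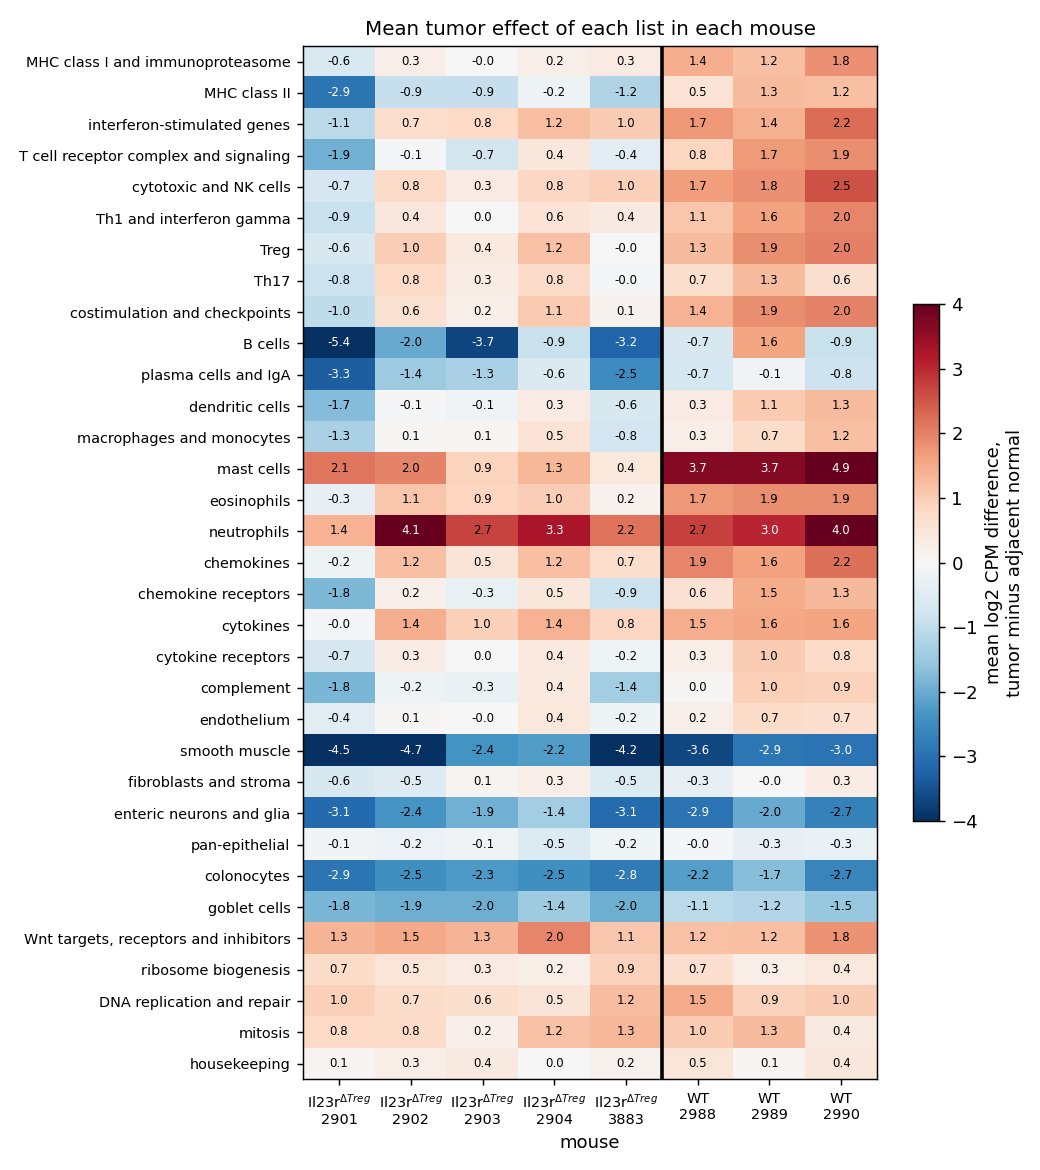
Mean tumor effect of each gene list in each mouse, as log2 CPM of the tumor minus that of its adjacent normal tissue, with the 5 *Il23r*ΔTreg mice left of the line and the 3 WT mice right of it. The class II list is below 0 in all *Il23r*ΔTreg mice and above 0 in all WT mice, *Il23r*ΔTreg mouse2901 has the lowest mean of the 8 mice in the class I, class II, T cell and B cell lists, and neutrophils and Wnt targets overlap between the genotypes.

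Of 36 chemokines, 18 had a negative interaction at an unadjusted p under 0.05 and 0 a positive one (median -1.36). Among chemokine receptors it was 12 of 22 and 0 (median -1.55). *Ccl21a*, the lymphoid chemokine that binds CCR7, had tumor effects of -2.44, -1.47, -2.26, -1.07 and -1.63 in *Il23r*ΔTreg mice, against 0.52, 0.03 and 0.85 in WT mice. The gene was lower in the tumor of every *Il23r*ΔTreg mouse and of no WT mouse, though near-identical copies of *Ccl21a* may share its reads (interaction -2.24 ± 0.33, adjusted p = 0.121 by edgeR). *Ccl5*, a chemokine of T cells and NK cells, ran from -3.49 to -0.23 in *Il23r*ΔTreg mice and from 0.82 to 3.20 in WT mice.

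B cell genes had some of the most negative interactions. Of 17 tested, 15 were negative and 0 positive at an unadjusted p under 0.05 (median -3.63). Here the medians lay away from 0 in both tissues: the median difference between genotypes was -2.92 in tumors and 1.12 in adjacent normal tissue. *Cd79b*, a signaling chain of the B cell receptor, had tumor effects of -5.83, -2.39, -3.38, -0.27 and -3.32 in *Il23r*ΔTreg mice, against 0.51, 0.97 and 0.26 in WT mice. *Il23r*ΔTreg mice were spread over more than 5 log2 units and WT mice over less than 1, and the lowest level of the *Il23r*ΔTreg adjacent tissue (3.43 CPM) was below the lowest WT level (4.07 CPM) while the highest was 42.6 CPM against 10.7 CPM in WT. Without WT mouse2989 the number of B cell genes at that threshold was 7 in place of 15.

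Among mast cell genes, 10 of 14 were negative and 0 positive at an unadjusted p under 0.05 (median -3.81). *Fcer1a*, a chain of the high-affinity IgE receptor, had tumor effects of 2.96, 2.84, 0.80, 1.08 and 0.51 in *Il23r*ΔTreg mice, against 6.69, 5.46 and 5.20 in WT mice. Tumors of all 8 mice held more of it, by less in each *Il23r*ΔTreg mouse (interaction -4.82 ± 0.85, adjusted p = 0.14 by edgeR). Its level was 0.286 to 3.93 CPM in *Il23r*ΔTreg tumors against 4.62 to 11.9 CPM in WT tumors, and 0.103 to 0.656 CPM in *Il23r*ΔTreg adjacent tissue against 0.045 to 0.0974 CPM in WT adjacent tissue. Both tissues thus parted the genotypes, in opposite directions, from low counts beside the tumors. The mast cell protease *Mcpt4* showed the same order, with a difference between genotypes of -1.90 in tumors and 2.35 in adjacent normal tissue.

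Of 28 macrophage and monocyte genes, 13 were negative and 0 positive at an unadjusted p under 0.05 (median -1.21), and of 23 dendritic cell genes 15 and 0 (median -1.31). Dendritic cell genes numbered 9 negative without WT mouse2989 and 8 without WT mouse2990. *Cd68*, a lysosomal protein of macrophages, ran from -1.64 to -0.54 in *Il23r*ΔTreg mice and from -0.04 to 1.23 in WT mice. Another macrophage marker, *Adgre1*, falls outside the naming rule and was picked with its values known. It was lower in the tumor of every mouse of both genotypes. Its levels overlapped in tumors, at 6.53 to 19.3 CPM in *Il23r*ΔTreg mice and 16.7 to 22.5 CPM in WT mice. Of 22 complement genes 10 were negative and 0 positive (median -1.35). *Cfp*, which encodes properdin of the alternative pathway, had tumor effects of -1.22, -0.40, -0.10, -0.15 and -0.88 in *Il23r*ΔTreg mice, against 1.27, 1.05 and 1.95 in WT mice. Neither *Cd68* nor *Cfp* overlapped between the genotypes. Of 20 neutrophil genes 1 was negative at that threshold and 0 positive (median -0.69). Without mouse2902 it was 4, and the median lay between -1.22 (without mouse2902) and -0.28 (without mouse2901) with a mouse left out. The list means of the mice overlapped in neutrophil genes, with the WT means (2.73 to 4.03) below the highest *Il23r*ΔTreg mean (4.14).

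**Figure D4:**
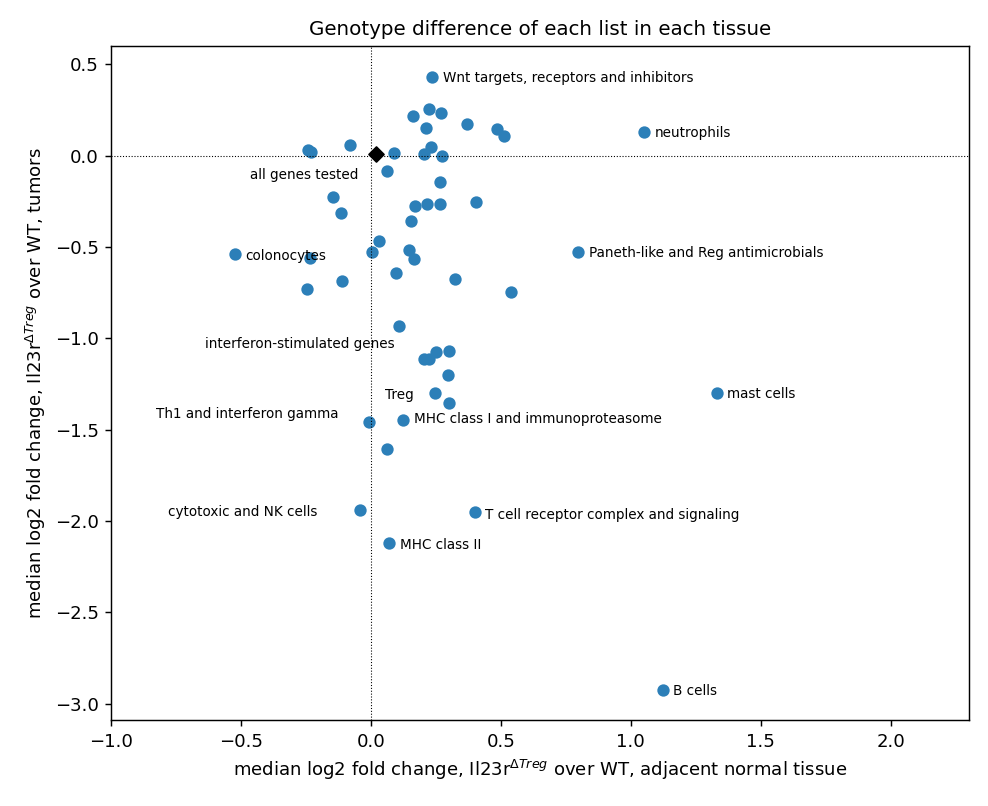
Median log2 fold change of each gene list between *Il23r*ΔTreg and WT mice, in tumors (vertical axis) and in adjacent normal tissue (horizontal axis); each point is a list and the diamond is all genes tested. The class II list lies at -2.12 in tumors and 0.07 in adjacent tissue, while B cells (-2.92 and 1.12) and mast cells (-1.30 and 1.33) lie away from 0 on both axes.

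Other genes with the smallest p in the negative direction were *Lsp1*, an actin-binding protein of leukocytes (interaction -1.36 ± 0.18), *Thy1*, a surface glycoprotein of T cells and stromal cells (-1.51 ± 0.25), and *Upp1*, the uridine phosphorylase (-2.17 ± 0.34). *Lsp1* had tumor effects from -1.89 to -1.25 in *Il23r*ΔTreg mice and from -0.24 to 0.00 in WT mice. *Kcnab2*, a subunit of potassium channels, had an interaction of -2.17, *Apol6*, of the apolipoprotein L family, one of -2.38, and *Bin1*, which shapes membranes, one of -1.25. All of these had an adjusted p of 0.121 by edgeR.

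In the positive direction, *Ptgs2* came closest to the threshold. It encodes cyclooxygenase-2, which makes prostaglandins in inflamed tissue and in colon tumors. Its tumor effects were 3.22, 2.99, 2.90, 3.24 and 3.37 in *Il23r*ΔTreg mice, against 1.24, 1.59 and 1.21 in WT mice. Tumors rose above adjacent tissue in both genotypes (edgeR adjusted p = 2.33e-06 in *Il23r*ΔTreg mice and 0.000504 in WT mice), and the smallest value of an *Il23r*ΔTreg mouse was well above the largest of a WT mouse. The level was 20.2 to 46.8 CPM in *Il23r*ΔTreg tumors and 8.02 to 14.3 CPM in WT tumors. The interaction was 1.81 ± 0.22 (adjusted p = 0.0744 by edgeR). It was past the threshold without WT mouse2989 (adjusted p = 0.0305) and not with any other mouse left out.

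*Mmp13* and *Mmp10*, which encode a collagenase and a stromelysin that cut extracellular matrix, and *Il11*, a cytokine of the IL-6 family made by stromal cells, are described side by side with their values known and form no list of their own. *Mmp13* had 5.32, 4.22, 3.67, 4.27 and 6.15 in *Il23r*ΔTreg mice, against 2.32, 1.05 and 2.10 in WT mice. *Il11* had 4.38, 4.05, 4.85, 5.63 and 5.06 in *Il23r*ΔTreg mice, against 2.15, 1.44 and 3.17 in WT mice. *Mmp10* had 4.98, 5.51, 5.20, 5.10 and 5.57 in *Il23r*ΔTreg mice, against 3.27, 2.92 and 4.82 in WT mice. All 3 genes were higher in the tumor of every mouse, by more in each *Il23r*ΔTreg mouse, and *Mmp10* of WT mouse2990 came within 0.2 of the lowest *Il23r*ΔTreg mouse. The interactions were 2.91 ± 0.55 for *Mmp13*, 2.58 ± 0.50 for *Il11* and 1.65 ± 0.39 for *Mmp10*, with adjusted p-values by edgeR of 0.148, 0.152 and 0.17. The 19 metalloproteinases and inhibitors had a median of -0.04, with 2 positive (10.5%, beside 9.61% over all genes tested) and 1 negative at an unadjusted p under 0.05. Of 37 cytokines, the list of *Il11*, 1 was positive and 10 were negative.

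The promoters of these 3 genes each hold a match to TGANTCA, the site of AP-1, which reads the same on both strands, though the genes were picked by their values and the 3 matches are no count over a list. It was present in 928 of 13085 tested genes (7.09%) and in 5 of 16 metalloproteinase and inhibitor genes with a promoter in the table (31.2%). Lists with negative interactions had it as well, in 11 of 40 interferon-stimulated genes (27.5%), 3 of 11 class II genes (27.3%) and 6 of 26 chemokines (23.1%). It was in 0 of 19 class I and immunoproteasome genes. At an unadjusted p under 0.05, it was present in 10.2% of genes with a negative and 5.23% of genes with a positive interaction. To show where it lies, 150 bases upstream of the start, with the site in capitals, are printed 5′ to 3′ on the strand of the gene from chr9:7272364-7272513 (+ strand), chr9:7502192-7502341 (+ strand) and chr7:4778162-4778311 (- strand) of GRCm38.p6 (RefSeq).
Mmp13: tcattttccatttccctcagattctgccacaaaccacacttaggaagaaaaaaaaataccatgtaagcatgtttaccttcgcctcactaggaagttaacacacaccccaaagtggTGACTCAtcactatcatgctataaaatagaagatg
Mmp10: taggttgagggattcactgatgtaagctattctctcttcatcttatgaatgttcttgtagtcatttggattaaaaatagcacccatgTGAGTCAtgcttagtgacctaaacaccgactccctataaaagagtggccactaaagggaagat
Il11: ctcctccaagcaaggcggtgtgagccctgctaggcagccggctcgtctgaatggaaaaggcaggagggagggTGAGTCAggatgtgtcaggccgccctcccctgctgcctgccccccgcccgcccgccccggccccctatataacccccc

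*Muc1*, a transmembrane mucin of the epithelial surface, had tumor effects of 1.47, 0.83, 1.55, 1.62 and 1.84 in *Il23r*ΔTreg mice, against -0.13, -0.53 and -1.72 in WT mice. Every *Il23r*ΔTreg tumor held more *Muc1* than the tissue beside it and every WT tumor less (interaction 2.25 ± 0.38, adjusted p = 0.121 by edgeR). *Apln*, the ligand of the apelin receptor, had an interaction of 1.83 ± 0.37, and *Ereg*, a ligand of the EGF receptor, one of 1.14 ± 0.36, both without overlap of the mice. *Cobl*, which nucleates actin filaments, had 1.13 ± 0.24, and *Cfap69*, a protein of cilia and flagella, 1.62 ± 0.34.

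Wnt signaling drives the growth of crypt cells. Of 40 Wnt targets, receptors and inhibitors, 6 (15%) had a positive and 1 (2.5%) a negative interaction at an unadjusted p under 0.05. The shares over all genes tested were 9.61% and 7.70%, and the list median was 0.14. The 6 were *Rnf43* and *Znrf3*, ubiquitin ligases that remove Wnt receptors, the receptors *Lrp5* and *Lrp6*, the guidance receptor *Ephb2* and the transcription factor *Sox9*. *Rnf43* had tumor effects of 2.90, 2.74, 2.31, 2.50 and 2.34 in *Il23r*ΔTreg mice, against 1.79, 1.63 and 2.21 in WT mice, a small gap without overlap. The Wnt targets *Axin2* (0.16 ± 0.24) and *Lgr5* (-0.53 ± 0.66) had interactions within their error of 0. When the length trend was removed, 2 of the 40 genes were positive and 1 negative, where 5.63% of all genes tested were positive. The interaction of *Ephb2* turned from 0.53 to -0.059, and *Rnf43* was at 0.54 and *Znrf3* at 0.27.

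The length of the transcript went with the direction of the interaction. The Spearman rho of the tumor effect with the longest annotated transcript, across genes of a mouse, was 0.0581, 0.0178, -0.000198, 0.0776 and -0.0615 in *Il23r*ΔTreg mice, against -0.356, 0.0118 and -0.258 in WT mice. WT mouse2988 and mouse2990 thus had higher levels of short transcripts and lower levels of long ones in their tumors, and WT mouse2989 lay among the *Il23r*ΔTreg mice (two-sided exact permutation test p = 0.0536, adjusted p = 0.268 over 5 technical measures). Among genes with the shortest transcripts (102 to 1769 bases), the interaction was negative for 13.8% and positive for 0.791% at an unadjusted p under 0.05, and among those with the longest (5055 bases and more) for 2.26% and 29.0%. With each library's trend with length removed, an alternative chosen after seeing the data, 1296 genes were negative and 964 positive.

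In that alternative 7.57% of all genes tested were negative, and immune lists differed. Negative genes numbered 19 of 22 for class I, 13 of 14 for class II and 21 of 24 for the T cell receptor, as before. They were 31 of 55 for interferon-stimulated genes (28 before) and 6 of 18 for Th17 genes (3 before). Fewer were negative among costimulation and checkpoint genes (14 of 24, 17 before), chemokines (15 of 36, 18 before) and plasma cell genes (6 of 18, 9 before). Without WT mouse2988 the class I list had 19, class II 13, the T cell receptor list 21 and interferon-stimulated genes 21. Without WT mouse2990 these were 18, 13, 15 and 16. Leaving out WT mouse2989 gave 19, 11, 14 and 29, where 13.6% of all genes tested were negative. Among the genes with positive interactions, *Mmp13* was at 2.99 with the trend removed, *Il11* at 2.79, *Hoxb5* at 2.53, *Muc1* at 2.39 and *Ptgs2* at 1.65. The genes of long transcripts moved more, with *Nav2*, a neuron navigator, at 0.49 in place of 1.09 and *Tenm4*, a teneurin, at 0.87 in place of 1.51.

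**Figure D5:**
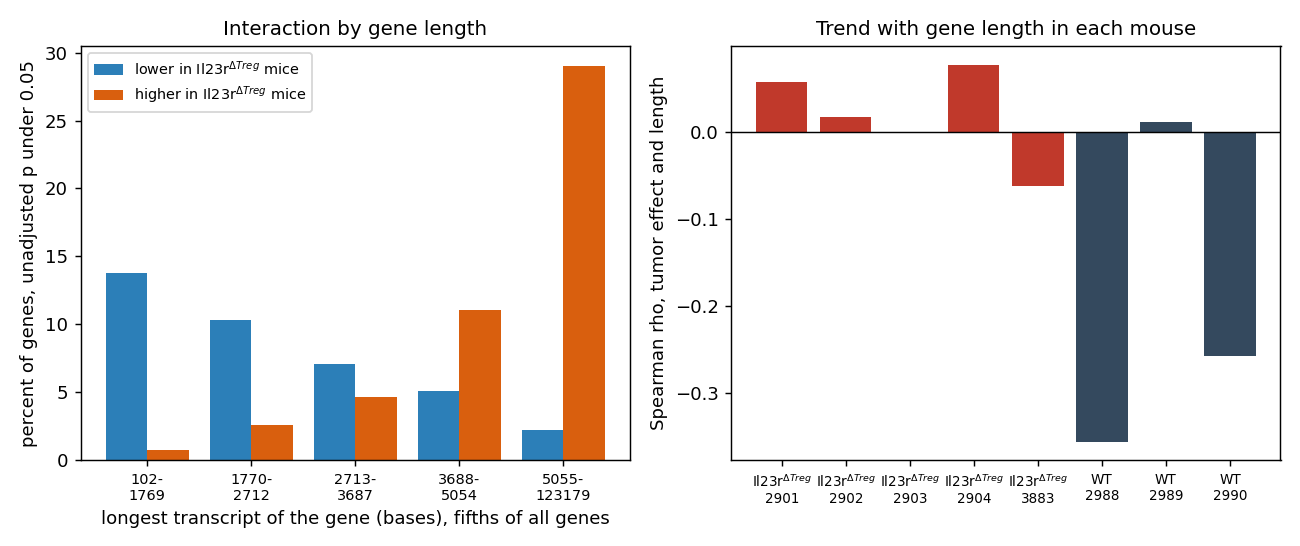
Left, percent of genes with an unadjusted interaction p under 0.05, lower or higher in *Il23r*ΔTreg mice, in 5 groups of genes by the length of the longest transcript in bases. Right, Spearman rho across genes of the tumor effect with that length in each mouse; the shares run from 13.8% lower in the shortest group to 29.0% higher in the longest, and WT mouse2988 and mouse2990 have rho of -0.356 and -0.258.

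Other gene groups varied with the mice included, and so did the shares over all genes tested. Without WT mouse2989, 13.6% of all genes were negative and 15.5% positive at an unadjusted p under 0.05. The shares were 6.65% and 7.57% without mouse3883, 8.88% and 9.49% without mouse2903, and 8.08% and 7.27% without mouse2904. Of 20 smooth muscle genes, 0 had an unadjusted p under 0.05 in either direction by edgeR (median -0.43), against 4 negative without mouse2904 and 3 without mouse2903. With all mice it was also 0 of 46 ribosomal proteins of the large subunit (median -0.56), of which 40 were negative at that threshold without WT mouse2989. Of 12 housekeeping genes 1 was negative and 0 positive (median -0.20), against 5 negative without WT mouse2989 and 3 without mouse2903. Of 32 mitosis genes 1 was negative and 0 positive (median -0.25), against 7 negative without mouse3883. Without WT mouse2989, 4 were positive (12.5%), below the share over all genes. Of 33 ribosome biogenesis genes 0 were negative and 7 positive (21.2%, beside 9.61% over all genes tested, median 0.01). The positive count was 1 to 4 without any one of mouse2901, mouse2902, mouse2904, mouse3883, WT mouse2988 and WT mouse2990. In those fits 3.55% to 7.57% of all genes were positive. Without WT mouse2989 there were 8 positive and 8 negative (24.2% each). Of 20 endothelial genes 8 (40%) were negative and 0 positive (median -0.44), among them the adhesion molecule *Icam1*, with tumor effects from 0.77 to 1.77 in *Il23r*ΔTreg mice and from 1.98 to 3.00 in WT mice. Without the mouse as a block 5 endothelial genes were negative.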

How the data were processed

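RNA-seq of whole tumor and adjacent normal tissue was analysed from 16 libraries of 8 mice. After trimming by fastp (0.20.0), the authors ran Salmon (1.4.0) on a transcriptome named as Gencode version 21; most gene identifiers carry later versions, so the release behind the counts is uncertain and no coordinates of counted genes are given. The authors deposited estimated counts per gene as whole numbers, which were used as they stood. The tables of tests they deposited (limma 3.50.3 and DESeq2 1.34.0, holding fold changes and p-values), and 64 columns whose names the labels do not map to mice, were not used. A symbol was shared by more than 1 identifier in 31 cases.

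Genes were filtered with filterByExpr (minimum count 10) and fitted in edgeR 4.0.16 (R 4.3.3) with TMM, a term for each mouse and a tumor term for each genotype, which leaves 6 residual degrees of freedom; p-values were adjusted by Benjamini-Hochberg over all 17122 genes. Differences of single mice are log2 CPM with a prior count of 3. Genotypes within a tissue were compared in a fit of the 4 groups without mouse terms. Tumor and adjacent normal libraries with the same mouse number were taken to come from 1 animal and were paired, on the labels alone. For mouse2901 the cage labels of the pair differ, and the pair was kept. The correlation across genes of their deviations from the group means was 0.0514 to 0.163 in *Il23r*ΔTreg mice and -0.279 to 0.346 in WT mice. Mice are separate animals, and 0 library pairs were identical. The steps were run on simulated counts with known interactions. That simulation left out the differing length trends of single libraries, so it does not show how the fits behave with them.

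Genes were named by a rule: called genes; the 12 in each direction by smallest p whose mice do not overlap and whose mean log2 CPM is 1 or more; up to 3 genes a list, by smallest p under 0.05; 8 fixed genes; and up to 6 in each direction with opposite signs. Further list members (*B2m*, *Tap1*, *Calr*, *Pdia3*, *Erap1*, *Cd4*, *Axin2*, *Lgr5*, *Il1rl1*, and members behind small counts) were named after their values were seen. Not every gene the rule took is named, and some results on single genes are not reported here. The genes, the 53 lists and the comparison were chosen with earlier results of these data known, and the rule was written with them.

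Alternatives were the fit without the mouse, DESeq2 1.42.0, limma 3.58.1 on the differences and with voom, other scalings (DESeq2's size factors, library size, upper quartile), other filters (none, or CPM over 1 in 3 libraries), other thresholds, *Rn18s* left out and each mouse left out. Chosen after seeing the data was the removal of each library's trend with transcript length, which used the longest transcript of 17068 genes.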

Additional observations from a re-analysis of the deposited data

Results flagged for a closer look

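The interaction of *Car4* was -2.71, the only one past the threshold in edgeR. The tumor effects of the 5 *Il23r*ΔTreg mice were searched for a mouse far from the others, as a gap to the nearest mouse above 0.71 of the whole range, in 157 groups of values (the genes of the naming rule and the technical measures). Of these, 7 had such a mouse, where chance gives about 1 in 20, or 7.85. In 4 of them it was mouse2901, with tumor effects of -1.24 for *Psmb9*, 1.28 for *Cobl*, -0.83 for *Tnfrsf18* and -1.86 for *Xcl1*. The others were mouse2904 in *Cfap69* (1.33) and *Pgk1* (-0.40), and mouse2903 in *Defa32* (4.09).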

How the results depend on the processing

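In place of 1 gene, 2 passed at an adjusted p under 0.1. Among fits with another treatment of the pairing, 0 genes passed in edgeR without the mouse as a block (1325 negative and 1045 positive at an unadjusted p under 0.05, *Car4* at -2.65), 571 in DESeq2 with the block (452 negative, 119 positive), 349 in DESeq2 without it, 0 in limma on the differences (1332 and 1551 at an unadjusted p under 0.05) and 0 in limma voom with a random block (1452 and 1433). The count was 0 with library size alone (1037 negative and 1093 positive) and 0 with the length trend removed (1296 and 964). Upper quartile scaling gave 1796 negative and 1078 positive. Leaving out 1 mouse gave 0 to 975 genes, 812 to 2356 negative and 618 to 2693 positive. The highest of each was without WT mouse2989, the lowest positive count without WT mouse2988, and the lowest negative count without WT mouse2990, which left 729 positive. Genes of opposite sign numbered 21 in DESeq2 with the block, 25 without it, 23 in voom, 5 with the length trend removed, and 1 (without WT mouse2990) to 18 (without mouse2904) with a mouse left out. The causes were not tested. Removing a mouse also leaves fewer samples, yet the number of genes that passed rose to 975 without WT mouse2989.

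The interaction turned to -0.059 for *Ephb2* and -0.074 for *Acaca* with the length trend removed. For *Il23a* it was -0.10 without the block, -0.12 in DESeq2 without it, -0.035 with upper quartile scaling, and -0.20 to 0.45 with a mouse left out. Leaving out a mouse, it was -2.28 to 0.38 for *Il17a* and -1.46 to 0.90 for *Rn18s*. The mean of *Il23r*ΔTreg mice minus that of WT mice, with a mouse left out, was -1404.5 to -168.5 for the number of genes beyond 1, -0.171 to 0.0592 for the SD (0.00493 with the length trend removed), -11.0 to 1.94 percentage points for the *Rn18s* share, -0.0306 to 0.174 for the TMM factor and 0.142 to 0.326 for the rho with length. Without WT mouse2989 the number of genes, TMM factor and rho had p = 0.0476 in the exact permutation test, unadjusted. Over all alternatives of single genes, 2706 values kept their direction and side of the threshold, 226 came to pass it, 11 of *Car4* lost it and 12 changed sign. Of 1080 list medians, 1039 kept their sign.

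With 3 WT mice from 1 cage, a single mouse moves the counts, and *Car4* itself lost the threshold in 6 of 8 fits with a mouse left out (interaction -2.91 to -2.60, edgeR adjusted p 0.0206 to 0.179; it passed without mouse2902 and without WT mouse2989).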
